A study of Homo sapiens with 8 samples.

Results

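The AP-1 genes described here are FOS, FOSB, FOSL1, FOSL2, JUN, JUNB, JUND and the small MAF gene MAFF, 8 of the 18132 genes with an array probe set that names 1 gene. They were chosen by symbol in the platform's probe table and carry 25 of the 44988 probe sets used. Each gene is given by the probe set with its highest mean over the 8 arrays, with its other probe sets as a check. All 8 genes passed the filter on dim signal, which asked for a log2 signal above 5.36 (the 50th percentile over the array table) on at least 2 arrays and left 10527 genes. FOSL1 and MAFF exceeded that floor on 5 of the 8 arrays, and the other 6 genes on every array.

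The arrays hold RNA from H3122, a human lung adenocarcinoma cell line with the EML4-ALK fusion kinase, and from its ceritinib-resistant derivatives H3122-LR3 and H3122-LR2, called LR3 and LR2 below. LR3 cells were measured with ceritinib and with no agent, LR2 cells with ceritinib, with crizotinib and with no agent, and parental cells with ceritinib, with crizotinib and with no agent. Both agents inhibit the ALK kinase and were given at 1000 nM for 6 h. Every condition had 1 array, LR3 had no crizotinib array, and how the resistant lines were derived and whether they are clones is not given in the sources used here. All lines carry the fusion per the labels, and no label mentions a vehicle for the cells with no agent, which are called untreated below.

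AP-1 is a transcription factor made of pairs of leucine zipper proteins, in which a JUN protein binds a FOS protein or another JUN protein. The FOS, FOSL1, JUN and JUNB genes are early targets of growth factor receptors, switched on when the kinase ERK activates factors already bound at their promoters, and AP-1 in turn drives genes of proliferation, invasion and inflammation. The members differ in strength: FOS, FOSB and JUN carry strong activation domains, FOSL1 and FOSL2 lack the one found in FOS, and MAFF has none and acts as a partner of CNC and FOS proteins or as a repressor.

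Promoter sequences are shown for the members whose signal differed most between treated and untreated arrays, so that their regulatory sites can be compared. FOSL1, whose chosen probe set differed about as much as that of FOS, had no promoter entry and is not shown. Each line gives the 150 bases before the RefSeq start of the gene on the coding strand, build GRCh38.p14, with a matched motif in capitals. The windows lie at chr14:75278678-75278827 (+) for FOS, chr2:28392708-28392857 (+) for FOSL2, chr1:58784048-58784197 (-) for JUN, chr19:12791336-12791485 (+) for JUNB and chr22:38201844-38201993 (+) for the upstream start of MAFF.
FOS: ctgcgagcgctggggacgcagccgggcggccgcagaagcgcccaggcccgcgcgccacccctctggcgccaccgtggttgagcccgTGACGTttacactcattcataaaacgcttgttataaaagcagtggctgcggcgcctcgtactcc
FOSL2: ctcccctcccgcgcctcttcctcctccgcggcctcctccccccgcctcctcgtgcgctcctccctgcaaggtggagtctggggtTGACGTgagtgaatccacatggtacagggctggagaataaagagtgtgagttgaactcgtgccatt
JUN: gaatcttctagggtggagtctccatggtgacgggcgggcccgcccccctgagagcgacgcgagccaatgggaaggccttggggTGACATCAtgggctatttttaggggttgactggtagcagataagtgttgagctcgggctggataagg
JUNB: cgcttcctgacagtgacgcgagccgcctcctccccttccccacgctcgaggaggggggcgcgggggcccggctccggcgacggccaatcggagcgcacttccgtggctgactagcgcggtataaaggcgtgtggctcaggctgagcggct
MAFF: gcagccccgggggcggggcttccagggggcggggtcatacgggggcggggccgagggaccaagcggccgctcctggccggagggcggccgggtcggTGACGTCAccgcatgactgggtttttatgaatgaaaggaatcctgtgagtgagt
Both strands of the 250 bases before each start were searched for 4 motifs: TGACGTCA (the cyclic AMP response element, which ATF and CREB proteins bind), its first letters TGACGT (which lie within it), TGANTCA (the AP-1 site) and TGACATCA (the site through which JUN acts on its own promoter). In the FOS window TGACGT lies 64 to 59 bases before the start, and in the FOSL2 window it lies 66 to 61 bases before the start. In the JUN window TGACATCA lies 67 to 60 bases before the start, and in the MAFF window TGACGTCA lies 54 to 47 bases before it. The JUNB window held none of these letters, and none of the 8 windows of the 7 members with an entry held TGANTCA. Of 35116 promoters searched the same way, 7.1% held TGACGT, 1.65% TGACGTCA, 2.37% TGACATCA and 6.57% TGANTCA. FOSL2, FOS and FOSB carry the same 6 letters at nearly the same distance, in FOSB 60 to 55 bases before the start. The JUND window held TGACGTCA 200 to 193 bases before its start. It also held ACGTCA, which is TGACGT on the other strand, 87 to 82 bases before it. FOSB and JUND, whose sequences are not shown, had signal ranges of only 0.33 and 0.22, so these letters are not particular to the members that differed most. Whether any of these sites bears on the signals given next was not tested, and bases further upstream were not searched.

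FOSL2, a FOS-related partner of the JUN proteins, had the widest range of the 8 chosen probe sets, 2.76. Its log2 signal was 8.08 with ceritinib in LR3 cells, against 7.55 untreated. In LR2 cells it was 8.83 with ceritinib and 10.09 with crizotinib, against 8.05 untreated. In parental cells it was 8.83 with ceritinib and 9.15 with crizotinib, against 7.33 untreated. Each treated array thus lay above the untreated array of its own line, and the 3 untreated arrays spanned 0.72. The order of the levels began with parental, LR3 and LR2 untreated, went on to LR3 with ceritinib, then to LR2 and parental cells with ceritinib at the same level, and ended with parental and LR2 cells with crizotinib. With 1 array per condition no spread within a condition exists, so neighbours in that order cannot be told apart. The RNA came from whole cultures, so fewer cells with a transcript and less of it per cell cannot be told apart either.

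As a fold, FOSL2 was 4.11-fold higher with crizotinib in LR2 cells and 3.53-fold higher in parental cells. With ceritinib it was 2.83-fold higher in parental cells, 1.72-fold in LR2 cells and 1.44-fold in LR3 cells. Ranked among the 10527 tested genes by how much higher they were, FOSL2 stood at place 1 in LR2 cells with crizotinib, at place 5 in parental cells with crizotinib and at place 8 in parental cells with ceritinib. It stood at place 9 in LR2 cells and at place 74 in LR3 cells with ceritinib. The agents were read against the same untreated array of a line, so these differences are not independent of one another.

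FOS, an immediate early gene with a very short-lived mRNA, gave lower signals in the treated parental cells. Its signal was 6.57 with ceritinib in LR3 cells, against 6.44 untreated. In LR2 cells it was 6.37 with ceritinib and 5.98 with crizotinib, against 6.43 untreated. In parental cells it was 5.79 with ceritinib and 5.86 with crizotinib, against 6.61 untreated. The LR3 ceritinib array lay within the range of the 3 untreated arrays and the LR2 ceritinib array just under it, whereas both treated parental arrays and the LR2 crizotinib array lay below them all. The size of that difference depended on the probe set: the one with the highest mean was also the one of the 4 FOS probe sets with the smallest range, 0.82 against 1.4 to 3.29 for the other 3.

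The FOS probe set with the widest range read 6.86 with ceritinib in LR3 cells, against 6.83 untreated. In LR2 cells it read 6.59 with ceritinib and 4.42 with crizotinib, against 7.26 untreated. In parental cells it read 3.97 with ceritinib and 4.14 with crizotinib, against 7.12 untreated. The same arrays were low in all 4 FOS probe sets, and in all but the chosen one these 3 arrays lay under the floor of 5.36, so the sizes may be compressed. The differences from untreated cells ran from -3.15 to -0.82 with ceritinib in parental cells, from -2.98 to -0.75 with crizotinib in parental cells and from -2.84 to -0.45 with crizotinib in LR2 cells. With ceritinib they ran from -0.04 to 0.15 in LR3 cells and from -0.67 to -0.06 in LR2 cells.

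FOSL1, the FOS-related gene known for its dependence on ERK activity in carcinoma cells, followed the chosen FOS probe set closely by its own chosen probe set. Its signal was 5.71 with ceritinib in LR3 cells, against 5.59 untreated. LR2 cells read 5.60 with ceritinib and 5.12 with crizotinib, against 5.75 untreated. In parental cells it was 5.04 with ceritinib and 5.08 with crizotinib, against 5.85 untreated. The 3 low arrays lay below the floor of 5.36, so these differences, -0.81, -0.77 and -0.63, may be compressed. The other 5 FOSL1 probe sets did not pass the filter, and they varied. In parental cells the 6 probe sets differed by -1.37 to -0.05 with ceritinib and by -1.31 to 0.07 with crizotinib, where 2 were higher. With crizotinib in LR2 cells all 6 were lower, by -1.09 to -0.45. FOSB, an early gene whose product resembles FOS, stayed within a range of 0.33 over the 8 arrays: it read 5.86 with ceritinib and 6.08 untreated in LR3 cells, and 5.98 to 6.19 on the other 6 arrays. Its differences from untreated cells ran from -0.22 to 0.21.

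JUNB, a JUN protein that often restrains JUN, was read by a single probe set. Its signal was 8.04 with ceritinib in LR3 cells, against 7.95 untreated. LR2 cells gave 7.43 with ceritinib and 6.79 with crizotinib, against 7.87 untreated. Parental cells gave 7.14 with ceritinib and 7.17 with crizotinib, against 8.19 untreated. The 3 untreated arrays and the LR3 ceritinib array lay between 7.87 and 8.19, above the other 4 arrays. JUNB was 2.11-fold lower with crizotinib in LR2 cells, and in parental cells 2.07-fold lower with ceritinib and 2.03-fold lower with crizotinib.

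JUN, the partner that can pair with itself and bind its own promoter, differed less. Its signal was 6.32 with ceritinib in LR3 cells, against 6.58 untreated. The LR2 values were 6.91 with ceritinib and 6.01 with crizotinib, against 6.90 untreated. The parental values were 6.55 with ceritinib and 6.46 with crizotinib, against 6.91 untreated. The LR2 crizotinib array was the lowest of the 8, and LR2 cells with ceritinib stood level with the untreated LR2 and parental cells. All 4 JUN probe sets were lower with crizotinib, with differences of -0.89 to -0.55 in LR2 cells and -0.53 to -0.42 in parental cells. JUND, the JUN protein usually expressed at a steady level, held between 5.90 and 6.12 on all 8 arrays, with differences from untreated cells of -0.11 to 0.13.

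MAFF, the small MAF protein, had the largest negative differences of the family by its chosen probe set. Its signal was 6.45 with ceritinib in LR3 cells, against 6.30 untreated. LR2 cells read 5.60 with ceritinib and 4.09 with crizotinib, against 5.97 untreated. Parental cells read 4.62 with ceritinib and 4.67 with crizotinib, against 5.86 untreated. The arrays below the floor were those of LR2 cells with crizotinib and of parental cells with either agent, so the 3.68-fold, 2.36-fold and 2.28-fold lower values may be compressed. The other MAFF probe set was lower on the same 3 arrays, with differences of -0.28 in LR2 cells with crizotinib, -0.59 in parental cells with ceritinib and -0.91 in parental cells with crizotinib. With ceritinib in LR2 cells the probe sets had opposite signs, -0.37 for the chosen one and 0.23 for the other.

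**Figure D1:**
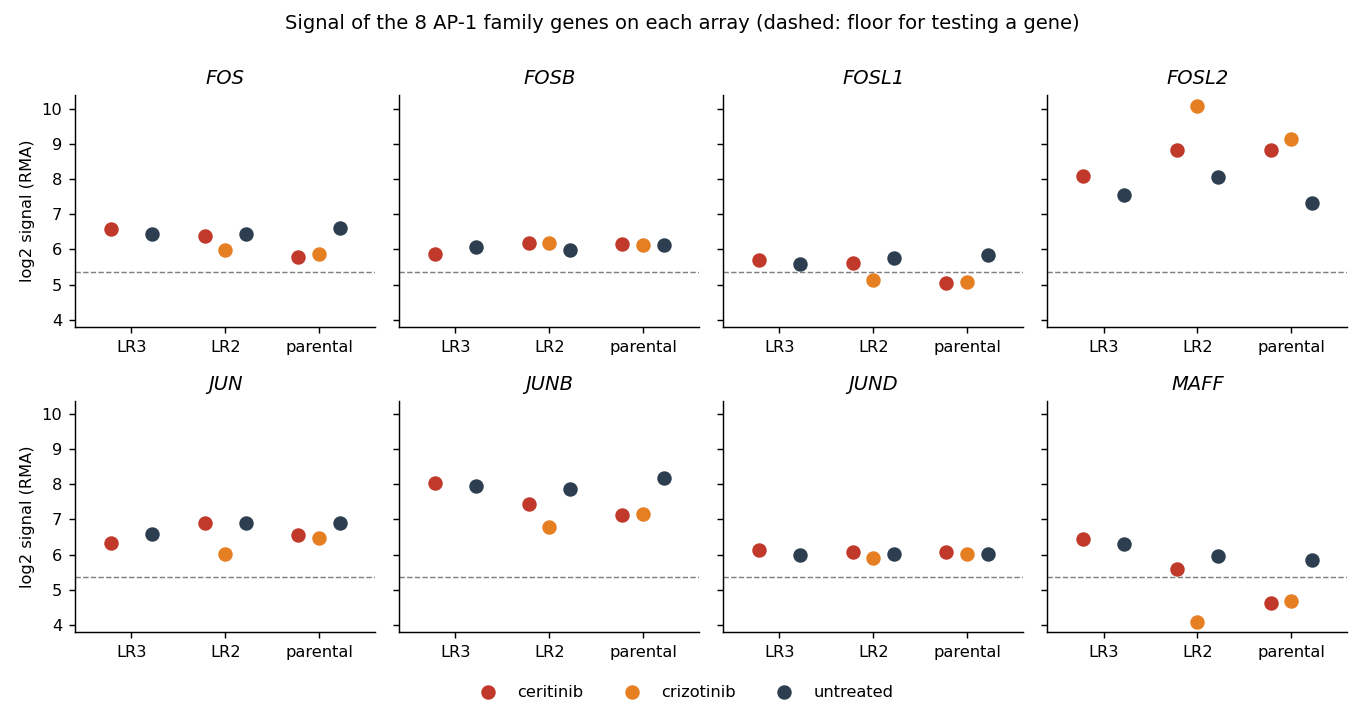
Log2 signal of the 8 AP-1 genes on each array, by line (x axis) and agent (colour), 1 point per array and the probe set with the highest mean per gene; the dashed line is the floor of 5.36. FOSL2 lies higher in every treated array than in the untreated array of its line, up to 10.09 in LR2 cells with crizotinib, while MAFF lies lowest there at 4.09, and FOSB and JUND stay nearly level.

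Counted over the family by the chosen probe sets, 3 of the 8 members differed at least 2-fold from untreated cells with crizotinib in LR2 cells, where 1.17% of all tested genes did. The count was also 3 with ceritinib in parental cells (1.51% of genes) and 3 with crizotinib in parental cells (1.4%). In each case JUNB and MAFF were lower and FOSL2 was higher, against 0.693%, 0.902% and 0.741% of genes at least 2-fold lower and 0.475%, 0.608% and 0.655% at least 2-fold higher in those conditions. With ceritinib no member differed 2-fold in LR3 cells (0.038% of genes) or in LR2 cells (0.0285%). These differences of single arrays have no test, and they show how few genes of any kind differed 2-fold in the resistant lines with ceritinib. The median difference of the 8 members was -0.54 in LR2 cells with crizotinib, -0.58 in parental cells with ceritinib and -0.60 in parental cells with crizotinib, against 0.01, 0.02 and 0.04 for all tested genes. It was 0.12 in LR3 cells and -0.02 in LR2 cells with ceritinib, against 0.01 and 0.10 for all tested genes.

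**Figure D2:**
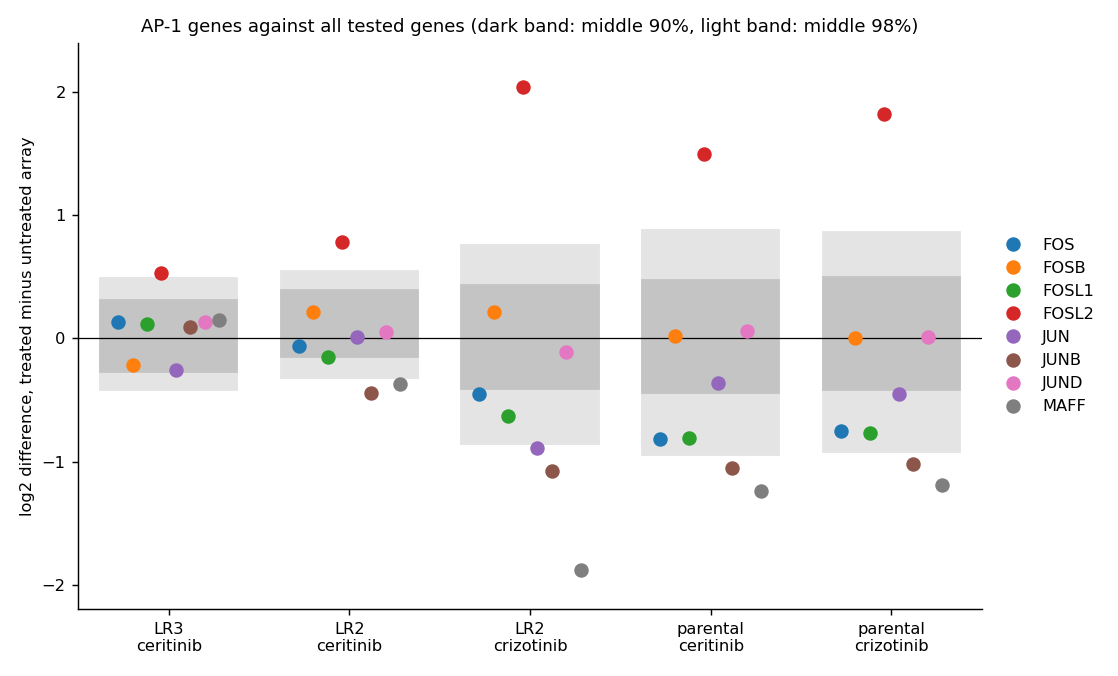
Log2 difference of each AP-1 gene, treated minus untreated array of the same line (y axis), in the 5 treated conditions (x axis), over the middle 90% (dark band) and middle 98% (light band) of 10527 tested genes. FOSL2 lies above the light band in all 5 conditions, and JUNB and MAFF lie below it in all but LR3 cells with ceritinib, where both stand inside the dark band.

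Probe sets of 1 gene share their target and are not replicates, but they show how far the values depend on the probes. Of the 25 AP-1 probe sets, 19 passed the filter. All 5 FOSL2 probe sets were higher in every treated array, by 1.12 to 2.04 with crizotinib in LR2 cells, 1.01 to 1.50 with ceritinib and 0.91 to 1.82 with crizotinib in parental cells, 0.22 to 0.79 with ceritinib in LR2 cells and 0.49 to 0.59 in LR3 cells. Of the 19, 5 were at least 2-fold lower in LR2 cells with crizotinib (0.623% of the 23773 probe sets that passed the filter), in parental cells with ceritinib (0.824%) and in parental cells with crizotinib (0.732%). They were 3 FOS probe sets and those chosen for JUNB and MAFF. No AP-1 probe set differed 2-fold with ceritinib in LR3 or LR2 cells, where few of any kind did. Of the 23773 probe sets, 0% were lower and 0.0379% higher in LR3 cells, and 0.0168% lower and 0.0252% higher in LR2 cells. Of the chosen probe sets, 5 carry the suffix _x_at and 1 the suffix _s_at, which mark probes that may bind more than 1 transcript.

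**Figure D3:**
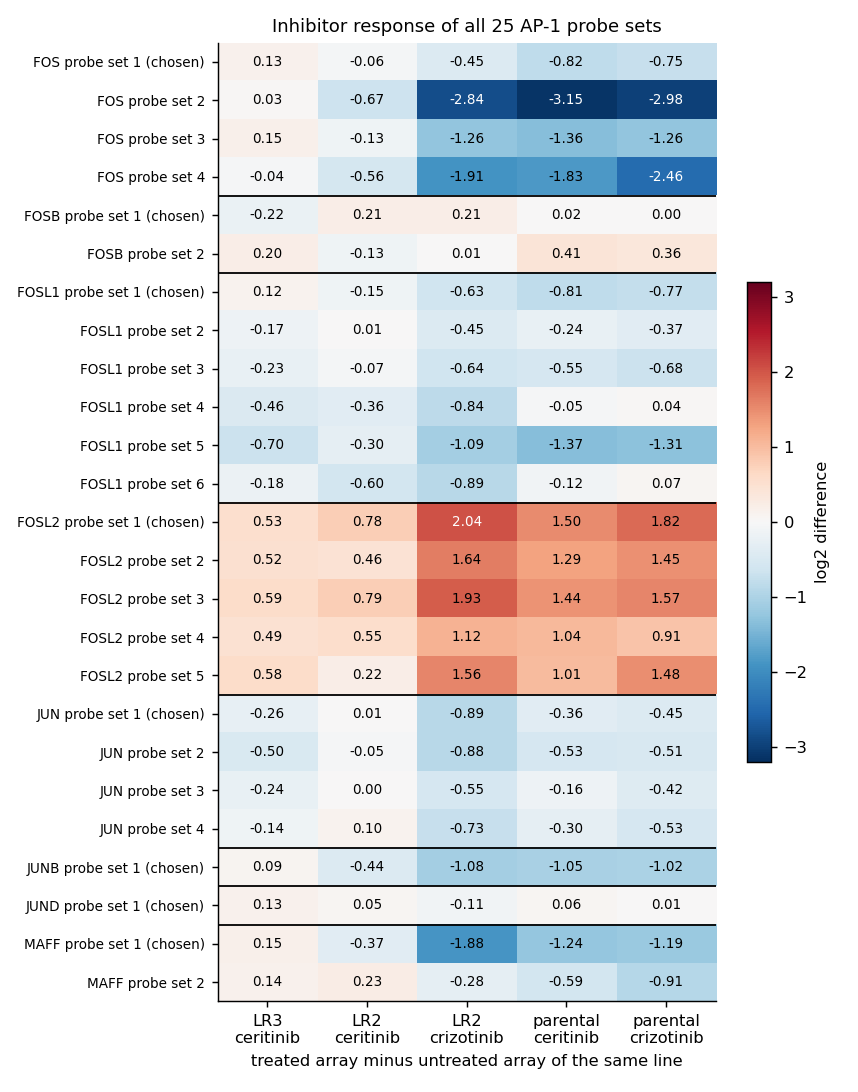
Log2 difference of all 25 AP-1 probe sets (rows) in the 5 treated conditions (columns), treated minus untreated array of the same line, blue for lower and red for higher; probe sets of a gene are ordered by mean signal. The 4 FOS probe sets and the 5 FOSL2 probe sets have opposite signs in LR2 cells with crizotinib and in parental cells with either agent, and the LR3 and LR2 ceritinib columns are pale.

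Whether crizotinib changed these genes across lines was asked with limma in an additive model, with a term for the line and for the agent. Benjamini-Hochberg adjustment was over 10527 genes, with a call at an adjusted p under 0.05. Since each condition had 1 array, the spread in this model is how far agent differences disagree between lines. A response present in only some lines therefore widens the spread, and a missing call does not show that a gene was unchanged. FOSL2 rose with crizotinib by 1.83 ± 0.22 (SE) on the log2 scale, or 3.55-fold (higher in 2 of 2 lines, adjusted p = 0.0222 by limma). It was the only member called, 1 of 8, where 3.76% of all tested genes were called and 2.82% were called higher. The other members were not called: JUN differed by -0.68 ± 0.16 (adjusted p = 0.0539), JUNB by -0.91 ± 0.22 (adjusted p = 0.0575) and MAFF by -1.38 ± 0.33 (adjusted p = 0.0581), each lower in 2 of 2 lines. FOSL1 differed by -0.60 ± 0.18 (adjusted p = 0.0981) and FOS by -0.50 ± 0.19 (adjusted p = 0.155). FOSB and JUND differed by 0.05 ± 0.11 and -0.04 ± 0.08.

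The call of FOSL2 rests on 4 arrays. Without the LR2 crizotinib array its difference was 1.54 (adjusted p = 0.359) and without the parental crizotinib array 2.12 (adjusted p = 0.193), both by limma. Without the LR2 untreated array it was 1.81 (adjusted p = 0.0711), and without the parental untreated array 1.64 (adjusted p = 0.0935). The count of members called ran from 0 to 6 when 1 array was left out, with 6 called without the parental ceritinib array. The count of all tested genes called moved as well, from 0 to 1529 over all alternatives, against 396 as reported. Member counts of different settings thus stand against different shares of all genes.

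With each probe set fitted on its own, 7 of the 19 AP-1 probe sets were called with crizotinib, against 2.09% of 23773 probe sets. The 5 FOSL2 probe sets rose by 0.96 to 1.83 (adjusted p = 0.0298 to 0.0361 by limma). The faintest of them exceeded the floor on the 2 crizotinib arrays alone, so it could enter the test only by being higher there. A JUN probe set above the floor on all 8 arrays fell by 0.51 on the log2 scale (SE 0.10, adjusted p = 0.0463). A FOS probe set was also called lower, with an estimate of -1.99 ± 0.32 (adjusted p = 0.0359), but both crizotinib arrays lay under the floor, at 5.02 in LR2 cells and 4.17 in parental cells, and it passed the filter through the 5 arrays where it was high. With the mean of all probe sets of a gene in place of 1 probe set, 5 members were called with crizotinib. FOSL2 was higher by 1.49, and FOS, JUN, JUNB and MAFF were lower, with differences of -1.55, -0.64, -0.91 and -0.96. The share of all genes called in that setting is not given here.

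Ceritinib against untreated cells had no call among the members or among all tested genes by limma (0% of 10527 genes), although 2017 genes had an unadjusted p under 0.05. FOSL2 differed by 0.94 ± 0.19 (higher in 3 of 3 lines, adjusted p = 0.0755). JUNB differed by -0.47 ± 0.19, MAFF by -0.49 ± 0.28 and FOSL1 by -0.28 ± 0.16, each lower in 2 of 3 lines (adjusted p = 0.227, 0.389 and 0.367). By the chosen probe sets LR3 was the line in which these 3 were not lower. The other 5 FOSL1 probe sets, which did not pass the filter, were lower in LR3 cells, with differences down to -0.70. FOS and JUN differed by -0.25 ± 0.16 and -0.20 ± 0.13, and FOSB and JUND by 0.00 ± 0.09 and 0.08 ± 0.07.

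**Figure D4:**
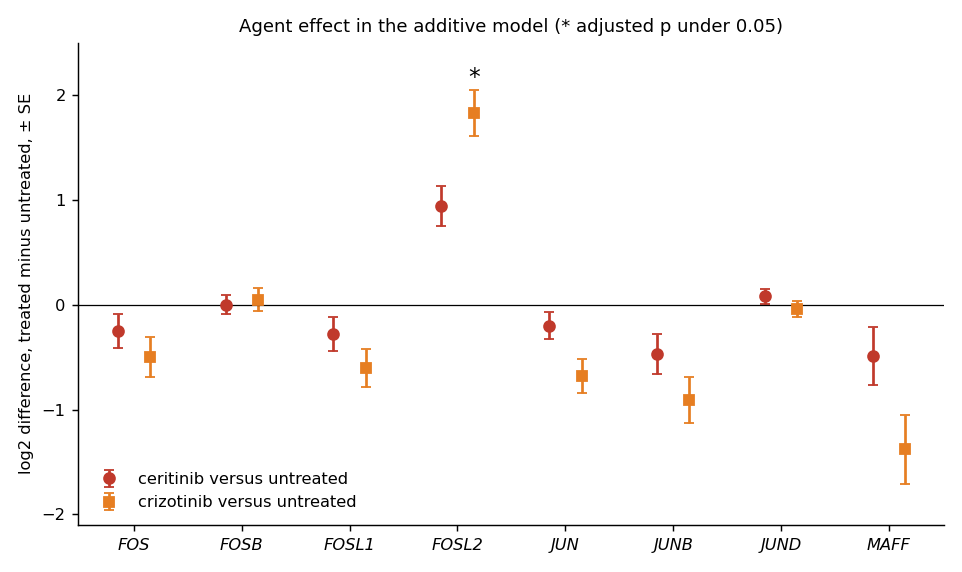
Log2 difference of each AP-1 gene for ceritinib (red circles) and crizotinib (orange squares) against untreated cells, as estimated by the additive limma model over 8 arrays; bars are standard errors and the asterisk marks an adjusted p under 0.05. FOSL2 with crizotinib, at 1.83, is the single called value, and the crizotinib estimates of JUN, JUNB and MAFF lie below their ceritinib estimates.

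The agents were given at the same dose and time, so they could be set against each other. In LR2 cells FOSL2 was 2.39-fold lower with ceritinib than with crizotinib, a difference of -1.26 that was the lowest of all 10527 tested genes. MAFF was 2.85-fold higher with ceritinib than with crizotinib in LR2 cells, at 5.60 with ceritinib against 4.09 with crizotinib. These 2 of 8 members passed 2-fold there, where 0.57% of genes did. The other 3 FOS probe sets were 4.5-fold, 2.55-fold and 2.19-fold higher with ceritinib there, and 4 of the 19 AP-1 probe sets were at least 2-fold higher, against 0.471% of all. By the chosen probe sets JUN, JUNB, FOSL1 and FOS were higher with ceritinib than with crizotinib by 0.90, 0.64, 0.48 and 0.39 in LR2 cells. In parental cells no member passed 2-fold (0.019% of genes): the 8 differences between the agents ran from -0.32 for FOSL2 to 0.09 for JUN. Over all their probe sets they ran from -0.17 to 0.63 for FOS, from -0.05 to 0.32 for MAFF and from -0.47 to 0.13 for FOSL2.

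In the additive model ceritinib against crizotinib gave no call by limma (0% of genes, 637 at an unadjusted p under 0.05). FOSL2 differed by -0.89 ± 0.22, MAFF by 0.89 ± 0.33 and JUN by 0.48 ± 0.16, with adjusted p = 0.712, 0.777 and 0.771. The ceritinib term of this model also draws on the 2 LR3 arrays, so the estimates need not equal the mean of the LR2 and parental differences. Without the parental ceritinib array, 6 members and 401 genes in all were called: FOSL2 at -1.27, and FOS, FOSL1, JUN, JUNB and MAFF at 0.55, 0.62, 0.66, 0.80 and 1.45.

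Whether the response to an inhibitor differed between lines was asked in a limma model of 6 conditions that took both agents as a single inhibitor condition in each line. In parental cells the estimates were 1.66 ± 0.49 for FOSL2, -1.22 ± 0.57 for MAFF, -1.04 ± 0.26 for JUNB, -0.79 ± 0.17 for FOS and -0.79 ± 0.20 for FOSL1. None was called (0% of genes, 1849 at an unadjusted p under 0.05), with adjusted p = 0.149 to 0.344 for these 5 members. In LR2 cells FOSL2 differed by 1.41 ± 0.49 and MAFF by -1.13 ± 0.57, and in LR3 cells, with ceritinib alone, FOSL2 by 0.53 ± 0.57 and MAFF by 0.15 ± 0.66. Neither line had a call (0% each, 1015 and 499 genes at an unadjusted p under 0.05).

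The difference of response itself, LR3 minus parental, was 1.36 ± 0.87 for MAFF, 1.13 ± 0.39 for JUNB, 0.91 ± 0.27 for FOS, 0.91 ± 0.31 for FOSL1 and -1.13 ± 0.75 for FOSL2. No gene was called in it (0%, 505 at an unadjusted p under 0.05), and the members had adjusted p = 0.91 to 0.98 by limma. LR2 minus parental gave 0.53 ± 0.25 for FOS and -0.25 ± 0.70 for FOSL2, again with no call (0%, 251 genes). The spread in this model comes from crizotinib against ceritinib arrays, which among the members ran from -0.32 to 0.09 in parental cells and from -1.26 to 1.51 in LR2 cells.

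Untreated cells of the 3 lines differed less. No member passed 2-fold in LR3 against parental cells (1.69% of genes) or in LR2 against parental cells (1.31%). The largest member differences were 0.72 for FOSL2, at 8.05 in LR2 cells against 7.33 in parental cells, and 0.44 for MAFF, at 6.30 in LR3 cells against 5.86 in parental cells. FOSL2 was higher in LR2 cells in all 5 of its probe sets, by 0.25 to 0.72. JUN and FOS were lower in untreated LR3 than in untreated parental cells in all 4 of their probe sets, with differences of -0.44 to -0.20 for JUN and -0.39 to -0.10 for FOS.

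With ceritinib, LR3 and LR2 cells stood above parental cells in FOS and MAFF. By the chosen probe sets 1 member passed 2-fold between LR3 and parental cells (2.44% of genes did): MAFF, at 6.45 in LR3 cells against 4.62 in parental cells, was 3.56-fold higher, and 1.77-fold by its other probe set. FOS was 1.72-fold higher by its chosen probe set and 7.41-fold, 3.23-fold and 2.17-fold by the other 3, so 4 of the 19 probe sets were at least 2-fold higher, against 1.01% of all. JUNB and FOSL1 were higher in LR3 cells by 0.90 and 0.67, and FOSL2 differed by -0.75. Without agent, MAFF differed by 0.44 and the 4 FOS probe sets by -0.39 to -0.10 between the same lines.

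Between LR2 and parental cells with ceritinib no chosen probe set passed 2-fold (2% of genes did), and MAFF was 1.97-fold higher. The other 3 FOS probe sets were 6.15-fold, 2.97-fold and 2.13-fold higher in LR2 cells, which made 3 of the 19 AP-1 probe sets at least 2-fold higher, against 1.36% of all. In these comparisons the 3 FOS probe sets and both MAFF probe sets lay under the floor in the parental ceritinib cells, so the sizes may be compressed. FOSL2 read 8.83 in both lines by its chosen probe set, and its other 4 differed by -0.51 to -0.24. With crizotinib LR2 and parental cells had no member past 2-fold by any probe set (1.52% of genes by the chosen ones). FOSL2 was higher in LR2 cells by 0.36 to 0.94 in its 5 probe sets, whereas the MAFF probe sets had opposite signs, -0.58 for the chosen one and 0.41 for the other.

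Across agents, the additive limma model called no member between the lines. Of all tested genes it called 22.5% in LR2 against parental cells, 21.6% in LR3 against parental cells and 19.6% in LR3 against LR2 cells. Here too a response that differs between lines widens the spread. A missing call therefore does not show that a member had the same level in the lines. FOSL2 differed by 0.55 ± 0.19 in LR2 against parental cells (adjusted p = 0.0683) and by -0.72 ± 0.22 in LR3 against LR2 cells (adjusted p = 0.0527). MAFF differed by 0.95 ± 0.33 in LR3 against parental cells (adjusted p = 0.0783), and JUN by -0.38 ± 0.16 (adjusted p = 0.121). For LR2 against parental cells the other 7 members had differences of -0.14 to 0.17. Among single probe sets, a FOS probe set was called higher in LR2 than in parental cells, 0.91 ± 0.27 (adjusted p = 0.0476, where 21.3% of probe sets were called), with 1 LR2 array and 2 parental arrays under the floor. A JUN probe set was called lower in LR3 than in LR2 cells, -0.57 ± 0.13 (adjusted p = 0.0205, where 17.6% were called), at 5.22 with ceritinib and 5.36 untreated in LR3 cells, neither above the floor.

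The genes around AP-1 were described by lists. The ERK output list stood lowest of all: its 18 genes had a median difference of -1.73 in LR2 cells with crizotinib, -1.79 in parental cells with ceritinib and -1.67 in parental cells with crizotinib, against -0.09 with ceritinib in LR3 cells and in LR2 cells. The 18 tested AP-1 target genes had medians of -0.92, -1.10 and -1.10 in the first 3 conditions, and -0.04 and -0.08 with ceritinib in LR3 and LR2 cells. The other immediate early genes, 18 tested, had medians of -0.55, -0.65 and -0.81, and -0.10 with ceritinib in both resistant lines. These medians were low in the 3 conditions in which JUNB and MAFF were at least 2-fold lower. The lists are not separate, since 7 genes stand on 2 of them.

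**Figure D5:**
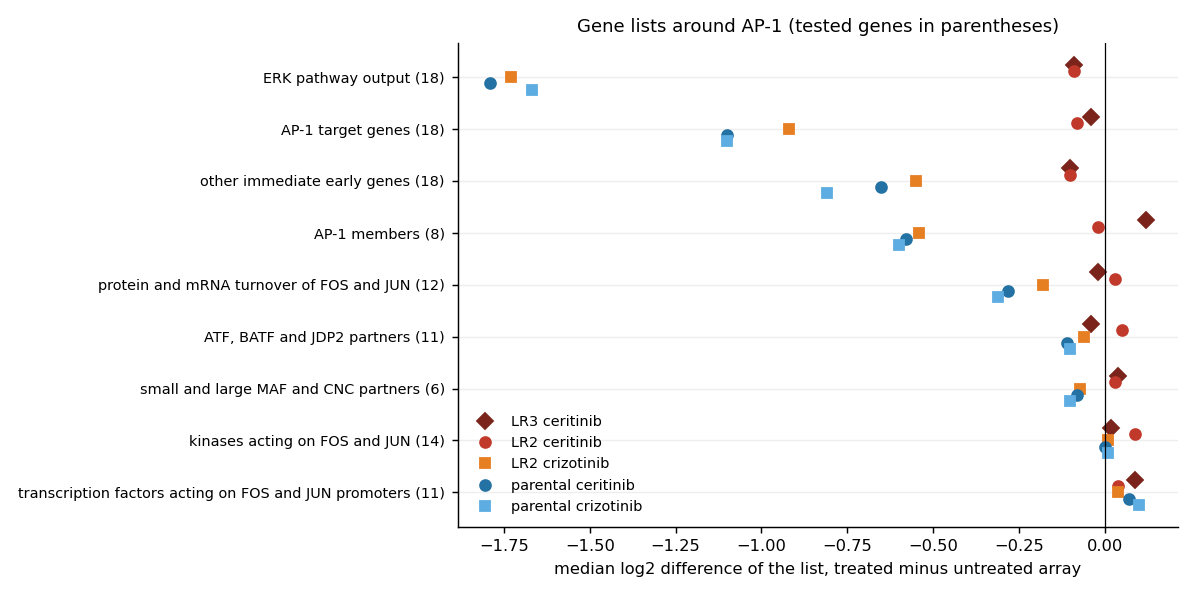
Median log2 difference, treated minus untreated array of the same line (x axis), of each gene list (rows, number of tested genes in parentheses) in the 5 treated conditions. ERK pathway output, AP-1 targets and other immediate early genes lie between -1.79 and -0.55 in LR2 cells with crizotinib and in parental cells, and between -0.10 and -0.04 with ceritinib in LR3 and LR2 cells; the turnover list lies between -0.31 and -0.18 in those 3 treated conditions, and the partner, kinase and transcription factor lists lie between -0.11 and 0.10 there.

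DUSP6, a phosphatase induced by ERK, served as a readout of the pathway. Its signal was 12.04 with ceritinib in LR3 cells, against 12.17 untreated. In LR2 cells it was 11.51 with ceritinib and 7.26 with crizotinib, against 11.79 untreated. In parental cells it was 7.39 with ceritinib and 7.93 with crizotinib, against 12.41 untreated. DUSP6 was low on the same 3 arrays as FOS, FOSL1 and MAFF. EGR1, an immediate early gene that ERK induces through the same promoter factors as FOS, had the widest difference of the 4 readouts with ceritinib in LR2 cells, -1.48, where the 4 FOS probe sets differed by -0.67 to -0.06. SPRY4, an ERK feedback inhibitor, differed by -0.17 with ceritinib in LR3 cells and -0.31 in LR2 cells, and by -3.73 with crizotinib in LR2 cells, where it read 3.81, under the floor. ETV4, an ETS factor downstream of ERK, differed by -0.58 with crizotinib in LR2 cells and by -0.38 and -0.36 with ceritinib and crizotinib in parental cells.

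Among AP-1 targets the widest differences were those of CXCL8, a neutrophil chemokine, which differed by -2.94 with crizotinib in LR2 cells, -4.23 with ceritinib and -3.95 with crizotinib in parental cells. CCND1, the G1 cyclin, differed by -1.78, -1.70 and -1.69 in those conditions. With ceritinib CXCL8 differed by -0.52 in LR3 cells and -0.73 in LR2 cells, and CCND1 by -0.22 and -0.05. These genes were picked for size after their values were seen. At least 2-fold lower were 8 of the 18 targets in LR2 cells with crizotinib, and 11 with ceritinib and 10 with crizotinib in parental cells, against 0 with ceritinib in either resistant line. Over all tested genes 0.693%, 0.902% and 0.741% were at least 2-fold lower in those 3 conditions.

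In the limma test of crizotinib against untreated cells, 0.94% of all tested genes were called lower and 2.82% higher. Of the AP-1 targets 1 of 18 was called, VEGFA, an angiogenic growth factor, which fell by 1.06 on the log2 scale (SE 0.20, adjusted p = 0.0363). Of the 18 other immediate early genes 5 were called, all lower, among them the ATF-family gene ATF3 at -0.77 ± 0.12 and the transcription factor gene KLF10 at -1.16 ± 0.25. Of the 18 ERK output genes 4 were called, all lower, with SPRY4 at -3.25 ± 0.65 and EPHA2, a receptor kinase gene, at -2.46 ± 0.52. Of the 11 ATF, BATF and JDP2 partners 2 were called lower, ATF3 again and JDP2, a repressor that pairs with JUN, at -0.44 ± 0.09. On both crizotinib arrays ATF3, SPRY4 and EPHA2 lay under the floor, so their sizes may be compressed.

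The 12 genes for the turnover of FOS and JUN mRNA and protein had medians of -0.18 in LR2 cells with crizotinib, -0.28 in parental cells with ceritinib and -0.31 in parental cells with crizotinib, against 0.01, 0.02 and 0.04 for all tested genes. TRIB1 and TRIB2, scaffolds of the COP1 ubiquitin ligase, were at least 2-fold lower in each of these conditions, with differences of -1.44 to -1.42 for TRIB1, named after its values were seen, and -1.51 to -1.10 for TRIB2. With crizotinib TRIB2 was the only call of the 12, where 0.94% of all tested genes were called lower. TRIB2 fell by 1.27 on the log2 scale (SE 0.25, adjusted p = 0.0408 by limma). The kinase, promoter factor, ATF and MAF lists had medians of -0.11 to 0.10 in the same conditions. Called higher were 2.82% of all tested genes. Of 14 kinases that act on FOS and JUN, 1 was called, RPS6KA5, an ERK-activated nuclear kinase, at 0.52 ± 0.09. Of 11 transcription factors that act on the FOS and JUN promoters 2 were called higher, MRTFB at 0.50 ± 0.10 and MEF2C at 0.63 ± 0.12, although all LR2 and LR3 arrays of MEF2C lay under the floor. None of the 6 other MAF and CNC genes was called.

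Between lines, where no member was called, the shares of all tested genes called were 22.5% for LR2 and 21.6% for LR3 against parental cells. In LR2 against parental cells the calls were 4 of 18 AP-1 targets, 4 of 11 ATF, BATF and JDP2 partners, 4 of 11 promoter factors, 5 of 14 kinases, 3 of 12 turnover genes, 1 of 18 other immediate early genes, 1 of 18 ERK output genes and 0 of 6 MAF and CNC genes. In LR3 against parental cells they were 6 of 18 targets, 4 of 11 partners, 1 of 11 promoter factors, 2 of 14 kinases, 3 of 12 turnover genes, 4 of 18 other immediate early genes, 1 of 18 ERK output genes and 0 of 6 MAF and CNC genes. Some genes in these counts lay under the floor on every array of the resistant line. They were MEF2C in both comparisons, BATF and the target TGFB1 in LR2 cells, and the target SPRR1B in LR3 cells. Their calls depend on where they passed the filter. Of the 6 targets called in LR3 cells 3 were higher and 3 lower, among them PTGS2, the inducible cyclooxygenase, which rose by 1.41 ± 0.32, and CD44, the hyaluronan receptor, which fell by 0.55 (SE 0.08). Of the 4 in LR2 cells 1 was higher, CD44 at 0.66 ± 0.07, and 3 were lower, among them TIMP1, a protease inhibitor, which fell by 1.32 (SE 0.09).

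ZFP36L1, which speeds the decay of mRNAs with AU-rich elements, fell by 1.55 on the log2 scale (SE 0.10, adjusted p = 0.000104 by limma) in LR3 against parental cells and by 0.48 (SE 0.09) in LR2 against parental cells. MEF2C, a factor that acts on the JUN promoter, read 4.64 to 4.87 in LR3 cells and 3.90 to 4.72 in LR2 cells, all under the floor, against 5.81 to 6.31 in parental cells, and passed the filter through the parental arrays alone. BATF, a partner that pairs with JUN proteins, read at most 4.90 in LR2 cells, under the floor, against 5.52 to 5.86 in parental cells. Since each could pass the filter only where it was high, these values are given with no test, although both genes stand in the counts of calls above.

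The genes whose profiles lay nearest to those of the members over the 8 arrays were found by the root mean square (RMS) difference between gene-centred log2 signals, a description with no test. By the chosen probe sets the nearest gene to FOS was FOSL1, with a difference of 0.06, and TMEM154 and FOS were nearest to FOSL1, both at 0.06. The other 3 FOS probe sets, with ranges of 1.4 to 3.29 against 0.81 for FOSL1, were not compared in this way. JUNB was nearest to ITGA2, an integrin chain, at 0.12, and also had PLAU, the urokinase gene, at 0.15, and MAFF had PPP4R1L at 0.18 and the ERK feedback gene SPRY1 at 0.22. FOSL2 had no near neighbour among the members, the nearest being FOSB at 0.81, and EHF, an epithelial ETS factor, was its nearest gene at 0.30. EHF read 9.25 with ceritinib in LR3 cells, against 8.98 untreated, 10.37 with ceritinib and 11.08 with crizotinib in LR2 cells, against 9.80 untreated, and 10.11 with ceritinib and 10.04 with crizotinib in parental cells, against 9.06 untreated. The nearest gene to JUN was YAE1, at 0.11.

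The quality of the arrays bears on all of these values. The median signal was 5.46 on the LR2 ceritinib array and 5.31 to 5.36 on the other 7, and the median difference of the tested genes between that array and the untreated LR2 array was 0.10. The control probe sets for the 3' end of GAPDH read -0.12 to -0.04 relative to those for its 5' end, and those of ACTB 0.09 to 0.26. All 10 markers of lung adenocarcinoma epithelium exceeded the floor on every array, with SFTPB closest to it at 5.40 to 5.58. None of 8 fibroblast markers passed the filter, with list means of 3.51 to 3.68, and of 6 leukocyte markers CD68 passed it, at 5.13 to 5.44, while PTPRC read 2.46 to 3.05 and list means were 3.80 to 4.15. Of 6 endothelial markers 3 passed the filter, and list means were 4.89 to 5.04 on the 8 arrays. CDH5 read 6.11 to 6.43 and KDR 5.71 to 6.52, above the floor on all 8 arrays and higher than SFTPB. VWF read 5.21 to 5.70. A signal above the floor thus does not by itself show that a cell type is present.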

How the data were processed

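RNA of 8 conditions was measured on 1-colour expression arrays, 1 array per condition. The values used are log2 probe set signals as deposited, made by RMA per the submitters' processing notes; the version and the arrays normalized together are not given in the sources used here. No further normalization was applied. Of 49395 probe sets, 102 were AFFX controls, 1832 named several genes and 2473 none, and 44988 were used. The probe set with the highest mean stood for a gene, and 10527 of 18132 genes passed the filter. Tests used limma 3.58.1 in R 4.3.3: an additive model of line and agent (3 residual and 4.99 prior degrees of freedom) and a model of 6 conditions (2 residual and 3.43 prior degrees of freedom), with Benjamini-Hochberg adjustment over all tested genes. The script was tested on simulated data. P-values measure the spread between these arrays alone, since the labels name no separate cultures, and the number of arrays limits the precision. Promoter sequences are from RefSeq, GRCh38.p14.

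The members, the lists and the rule for named genes were chosen with earlier results of these data known. The rule names all 8 members, DUSP6, SPRY4, ETV4 and EGR1, up to 4 called genes per list, and the 3 nearest profiles of each member with an SD of 0.3 or more; the text gives fewer of the last 2 kinds. Alternatives were quantile normalization, median centring, no filter, a filter at the 75th percentile (7.34), the mean of all probe sets, no _x_at or _s_at probe sets, each array left out, no crizotinib arrays, an intensity trend, and models without the agent or line term. A fit of 1 line's 3 arrays and a fit of every probe set were added after seeing the data.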

Additional observations from a re-analysis of the deposited data

Results flagged for a closer look

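By the chosen probe sets of 4 members the ceritinib and crizotinib arrays differed in LR2 cells and stood nearly level in parental cells. The signs were opposite between the lines, which drew attention to the difference of those differences, LR2 minus parental. It was 1.56 for MAFF (1.51 in LR2 cells and -0.05 in parental cells), 0.67 for JUNB (0.64 and -0.03), 0.52 for FOSL1 (0.48 and -0.04) and 0.46 for FOS (0.39 and -0.07), on the log2 scale. Other probe sets did not all have opposite signs. The other MAFF probe set was higher with ceritinib in both lines, by 0.51 in LR2 cells and 0.32 in parental cells, and so was a FOS probe set, by 1.35 in LR2 cells and 0.63 in parental cells. The remaining 2 FOS probe sets stood in opposite order, at 2.17 in LR2 cells and -0.17 in parental cells and at 1.13 and -0.10. No other FOSL1 probe set passed the filter, and JUNB has 1 probe set. The difference was not tested, since each value comes from 1 array per line and agent. The median difference of all tested genes, ceritinib minus crizotinib, was 0.09 in LR2 cells and -0.03 in parental cells. In parental cells the median absolute difference of all tested genes was 0.08. The parental values of the 4 chosen probe sets, -0.07 to -0.03, were smaller than that and do not show a reversal.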

How the results depend on the processing

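The count of members called for crizotinib against untreated cells, 1 with 396 genes in all, moved with most settings. It was 2 after quantile normalization (FOSL2 and JUN). With a floor at the 75th percentile it was 2, FOSL2 and JUNB, the only members above 7.34 on at least 2 arrays. It was 5 with the mean of all probe sets. Without _x_at and _s_at probe sets it was 3 (FOSL2, JUN at -0.68 and FOS at -2.59). JUNB and JUND have no other probe sets, and those left for FOSB and FOSL1 did not pass the filter at 5.36. An intensity trend gave 4, and the model without a line term 0. The share of all tested genes called in each of these settings is not given here, so these counts stand without their background. Leaving out 1 array gave 0 to 6 members, and over all alternatives 0 to 1529 genes were called. LR3 against LR2 cells, with 0 members, had 1 with a floor at the 75th percentile, without _x_at and _s_at probe sets, without both crizotinib arrays and with a trend, and 0 to 2 when an array was left out. LR3 against parental cells had 1 with the mean of all probe sets (MAFF, 0.72) and 0 to 1 when an array was left out. LR2 against parental cells had 1 with a trend (FOSL2, 0.55) and 0 to 2 when an array was left out. Ceritinib against crizotinib had 0 to 6 when an array was left out. Over all genes the counts ran from 1146 to 2602 for LR2 against parental cells (2369 as reported), 632 to 2721 for LR3 against parental cells (2274), 710 to 2630 for LR3 against LR2 cells (2064), 0 to 401 for ceritinib against crizotinib and 0 to 61 for ceritinib against untreated cells; the responses per line had 0 throughout. Of members past 2-fold, the mean of all probe sets gave 2 higher in LR2 cells with ceritinib against crizotinib, 2 higher in LR3 against parental cells with ceritinib and 1 higher in LR2 against parental cells with ceritinib. Without _x_at and _s_at probe sets, 1 member was lower in LR2 cells with crizotinib and 1 in parental cells with each agent, and 1 was higher in LR2 against parental cells with ceritinib. The shares of all tested genes past 2-fold in these settings are not given here either. The causes of these moves were not tested. Of 87 member differences that were not called, 28 changed sign in some alternative, in 51 of 1223 alternative values. The additive model sets treated against untreated arrays within lines through its line term. No paired analysis by replicate number was possible because each condition has 1 array and the labels carry no replicate numbers. The depth of signal limits FOSL1, MAFF and all FOS probe sets but the chosen one, whose low arrays lay under the floor.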
